A study of Caenorhabditis elegans with 23 samples.

Results

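Groups of wild-type Caenorhabditis elegans (strain N2) were compared, young adult whole worms with 3 libraries, and material labelled as embryos of the 1- and 2-cell stage with 2 libraries. They were chosen by their labels and make up 5 of the 23 libraries of the series. The growth protocol names plates with E. coli OP50 as food for the strain. PAT-seq, a method that tags the 3′ end of adenylated RNA and sequences into the poly(A) tail, gave for each gene a read count, a count of reads that carry a tail, and the mean tail length in nucleotides (nt). All 3 adult libraries were sequenced in run 1 and both embryo-labelled libraries in run 2, so stage and sequencing run coincide and cannot be told apart by these 5 libraries alone. The other libraries are gld-2(q497) and cpb-3 mutants in run 1 and gld-2(q497) worms on RNAi in run 2. Of these, the gld-2 worms of run 1 (3 libraries) and those on a non-targeting control RNAi in run 2 (2 libraries) served here to measure what differed between the runs at 1 genotype. Those groups also differ in the bacteria fed. Whether a run difference of gld-2 worms holds for N2 or embryo-labelled libraries was not tested.

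The first divisions of the C. elegans embryo run on mRNA that the mother loaded into the oocyte, because transcription of the embryo's own genome starts only after these divisions. Which maternal mRNAs are translated is set largely by RNA-binding proteins that act on their 3′ untranslated regions. Poly(A) tails are extended in the cytoplasm by the poly(A) polymerase GLD-2 and shortened by deadenylases such as the CCR4-NOT and PAN2-PAN3 complexes, and a tail is a common handle for translation and decay. The adult hermaphrodite holds a gonad with oocytes and, from the start of egg laying, embryos in its uterus, so maternal mRNAs are present in both groups.

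Total counts were 8.34, 9.58 and 13.29 M (1e6 reads) in the N2 libraries and 3.55 and 3.27 M in the embryo-labelled libraries. Reads with a tail made up 82.9, 89.1 and 89.0% of counts in N2 and 62.3 and 69.8% in the embryo-labelled libraries. The RNAi libraries of run 2 ranged from 53.6 to 85.1%. In run 1 the gld-2 libraries ranged from 83.1 to 87.1% and the cpb-3 libraries from 71.4 to 79.9%, so the ranges of the runs overlap. In gld-2 worms they did not overlap between run 1 and the control RNAi of run 2, which had 62.85 and 53.6%. Ribosomal RNA took 23.4 to 29.1% of counts in N2 and 5.56 and 3.76% in the embryo-labelled libraries. The mutant libraries of run 1 had 24.7 to 34.8% and the RNAi libraries of run 2 had 3.99 to 21.35%. Every run 1 library thus lay above every run 2 library. Whether the replicates are separate cultures is not stated in the labels, and the p-values then reflect library-to-library spread that may be technical only. With 2 embryo-labelled libraries and whole-worm controls, fewer cells of a type and less RNA per cell cannot be told apart.

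The embryo-labelled libraries were first read against marker genes. Their 10 markers of oocytes and early embryos summed to 4353 and 4807 CPM (counts per 1e6 reads, on TMM-scaled library sizes), against 3457 to 3525 CPM in N2. Of the 10 markers of the embryo after genome activation, pes-10, ceh-51, elt-2, hlh-1 and pha-4 passed the filter on low counts. They summed to 3.52 and 8.29 CPM, below the 15.2 to 23.04 CPM of N2, where ceh-51 alone had 7.72 to 10.5 CPM. In counts per 1e6 total reads all 10 summed to 4.22 and 11.02, against 16.55 to 23.25 in N2. In both embryo-labelled libraries med-1, tbx-35, tbx-37 and elt-2, which specify endoderm and mesoderm, were at 0. In the more deeply read N2 libraries together they had only 1, 4, 17 and 45 reads. The endoderm gene end-1 had 2 and 0 reads in the embryo-labelled libraries against 6, 10 and 10 in N2. For end-3 these were 0 and 4 reads against 3, 7 and 2. Of the 6 sperm markers, msp-33, msp-59, msp-76 and ssp-16 passed that filter and were low in both groups. They summed to 20.6 to 30.2 CPM in N2 and 25.2 and 46.1 CPM in the embryo-labelled libraries. All 6 gave 19.8 to 27.7 counts per 1e6 total reads in N2 and 29.85 and 54.5 in the embryo-labelled libraries. The adult tissue markers go against the label. The 5 markers of the adult intestine and its yolk products summed to 18548 and 23672 CPM in the embryo-labelled libraries and to 18333 to 23090 CPM in N2. The adult-specific cuticle collagen col-19 stood at 2089, 1563 and 1523 CPM in N2 and at 1687 and 1454 CPM in the embryo-labelled libraries. The yolk protein gene vit-2, expressed in the adult intestine, had 8325, 8000 and 7382 CPM in N2 and 5885 and 6462 CPM there. Neither was called on all reads. On tailed reads alone col-19 was lower, at a log2 change of -0.54 (edgeR adjusted p = 0.0296), as was vit-2, at -0.82 (edgeR adjusted p = 0.0053). Tailed reads made up 57.6 to 69.1% of col-19 reads in N2 and 38.9 and 39.6% in the embryo-labelled libraries. For vit-2 the shares were 88.5 to 94.6% and 50.5 and 57.9%. The 4 muscle markers reached 707 and 856 CPM against 1914 to 2021 CPM, and 4 cuticle markers 4611 and 3924 CPM against 7258 to 7968 CPM. The 3 neuronal markers gave 198 and 214 CPM against 209 to 240 CPM, most of it snb-1 at 180 and 206 CPM, while egl-3 had 14.9 and 5.96 CPM against 49.7 to 51.5 CPM and flp-1 had 3.52 and 1.56 CPM against 5.95 to 7.01 CPM. The 4 markers of the mitotic and meiotic germline had 88.5 and 93.8 CPM against 96.9 to 104 CPM. Oocyte and early embryo mRNAs were thus present together with abundant adult intestinal and cuticle mRNAs, and the libraries are called embryo-labelled here. The part of adult tissue in the results below was not tested.

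**Figure D1:**
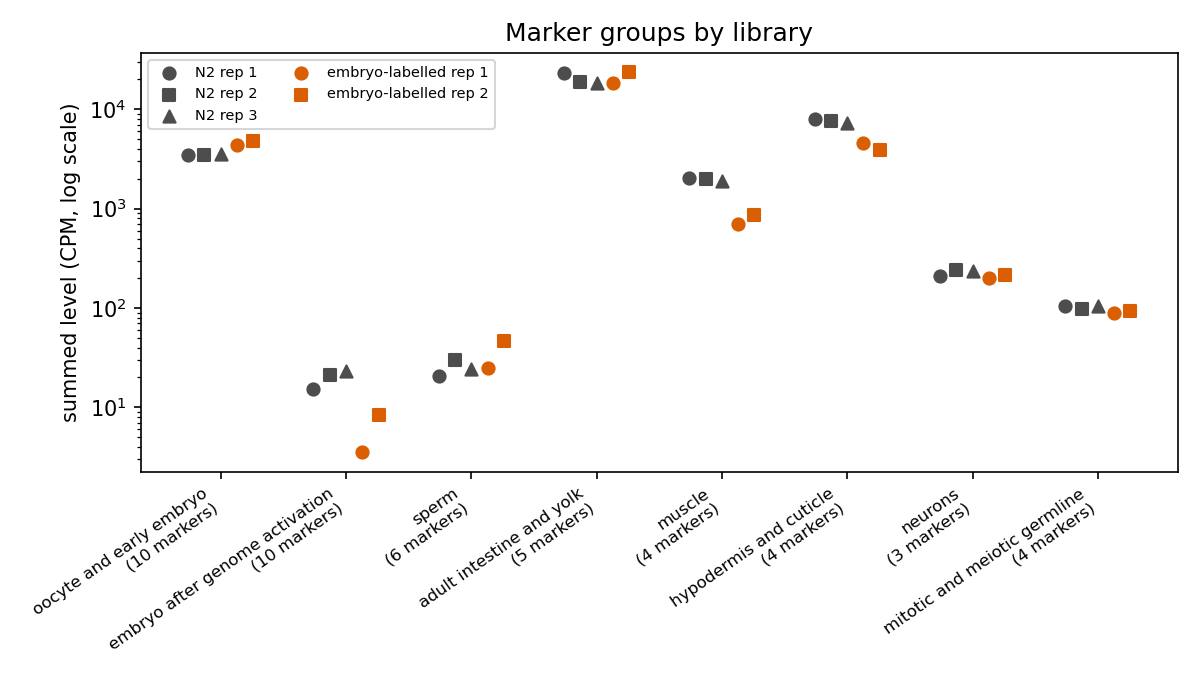
Summed expression of 8 marker groups in each library (CPM, log scale). Marker numbers in brackets include members that did not pass the filter on low counts, which add nothing to a sum. Grey symbols are the 3 N2 libraries and orange symbols the 2 embryo-labelled libraries; the markers of the adult intestine overlap between the groups, while those of muscle and cuticle are lower in the embryo-labelled libraries but far from 0.

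Expression differed widely. Of 9343 genes tested with edgeR's quasi-likelihood test, 1506 (16.1%) were higher and 1709 (18.3%) lower in the embryo-labelled libraries at a Benjamini-Hochberg adjusted p under 0.05. The median log2 change over all genes was -0.11. In 5632 of the 9343 genes (60.3%) the CPM of the groups did not overlap, so groups that lie apart are common here. Against 3215 calls in both directions together, the fit without N2 replicate 2 or 3 made 1548 or 1541 calls, without N2 replicate 1 there were 1910, and without embryo-labelled replicate 1 the number of lower genes was 2619. Embryo-labelled replicates also spread more: the SD of their log2 CPM difference across genes was 0.84, against 0.32 to 0.37 between N2 libraries.

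A pair of measurements bears on how these calls read. The gld-2 worms of run 2 differed from those of run 1 at 2259 of 10672 genes (21.2%), with no N2 or embryo-labelled library involved. Of the 1506 genes higher in the embryo-labelled libraries, 39.0% were also higher in run 2 in gld-2 worms, against 11.2% of all 9343 genes. Of the lower genes, 17.7% were lower in run 2 in gld-2 worms, against 8.38% of all. With a run term taken from the gld-2 worms, 561 genes were higher (5.26% of 10672) and 852 lower (7.98%). Among the calls made without it, 288 of 1506 higher genes and 653 of 1709 lower genes were called in the same direction with the run term, and 278 and 132 had the other sign.

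**Figure D2:**
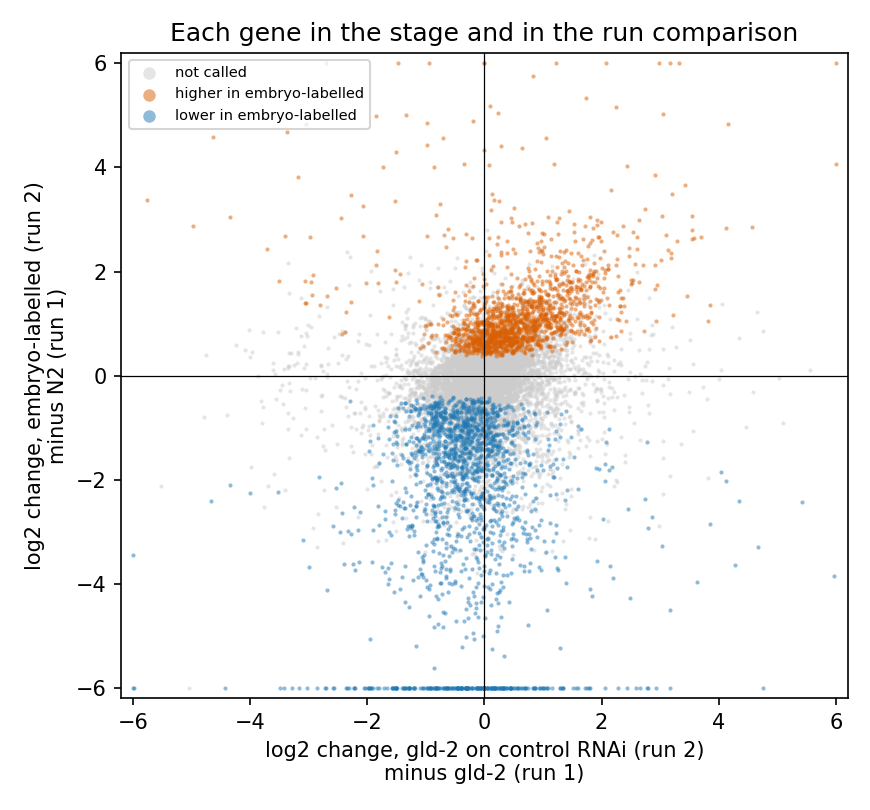
Log2 change of each gene between embryo-labelled and N2 libraries (vertical axis) and between gld-2 worms of run 2 and run 1 (horizontal axis), with values beyond 6 in either direction drawn at 6. Orange and blue points are genes called higher and lower in the embryo-labelled libraries; the orange cloud leans to the right, where genes were higher in run 2 in gld-2 worms as well.

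The second measurement is the share of reads with a tail, which over all reads was also lower in gld-2 worms on control RNAi in run 2 than in run 1. Among 4143 genes with at least 50 reads in each of the 5 libraries, 639 (15.4%) had fewer than 50% tailed reads in both embryo-labelled libraries, and 66 (1.59%) in all 3 N2 libraries. Of those 639 genes, 428 were called higher and 20 lower on all reads, while 37 were higher and 119 lower when tailed reads alone were counted. Of all 4143 genes, 1231 (29.7%) were called higher and 493 (11.9%) lower on all reads. The ribosomal protein gene rpl-33 is the plainest case. Its level was 651, 528 and 582 CPM in N2 and 5629 and 2741 CPM in the embryo-labelled libraries, a log2 change of 2.83 ± 0.27 (SE, adjusted p = 0.0002 by edgeR). Tailed reads made up 51.9, 76.2 and 77.0% of its reads in N2 and 3.59 and 7.97% in the embryo-labelled libraries. On tailed reads its log2 change was -0.61 (edgeR adjusted p = 0.0166), and with the run term -1.28. The ribonucleotide reductase gene rnr-1 rose from 355, 218 and 242 CPM to 1727 and 1712 CPM, with 10.2 and 10.9% tailed reads in the embryo-labelled libraries against 41.6 to 73.4% in N2. Its log2 change was 2.66 ± 0.21 on all reads and 0.53 on tailed reads. For the beta-tubulin gene tbb-2 the values were 2.70 ± 0.22 on all reads, 0.80 on tailed reads and -0.39 with the run term. Across the comparison, 776 of 1459 higher genes were also called higher on tailed reads, 237 had the other sign and 38 were called lower. Of 1650 lower genes, 1105 were also called lower, 0 had the other sign and 0 were called higher. In both checks together, 227 higher and 555 lower genes were kept.

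RNA-binding proteins that control maternal mRNA in the germline and embryo leaned to higher levels. Of 32 tested members of this list, 14 rose (43.8%) and 2 fell (6.25%), beside 16.1 and 18.3% of all genes. Their median log2 change was 0.36 beside -0.11 for all genes. The CCCH zinc-finger gene pie-1, whose protein represses transcription in germline blastomeres, went from 119, 150 and 136 CPM in N2 to 283 and 301 CPM in the embryo-labelled libraries. The groups did not overlap, and the log2 change was 1.11 ± 0.14 (edgeR adjusted p = 0.000692). On tailed reads it was 0.22, with 30.98 and 43.8% of its reads tailed in the embryo-labelled libraries against 76.5 to 90.1% in N2. Other members rose by both counts of reads. The meiotic maturation regulator oma-2 had 534, 464 and 525 CPM in N2 and 799 and 954 CPM in the embryo-labelled libraries, and its log2 change of 0.79 ± 0.15 was 0.67 on tailed reads and 0.82 with the run term (edgeR adjusted p = 0.0266). The DAZ-family translational regulator daz-1 had 384, 314 and 315 CPM against 724 and 836 CPM, all above the N2 libraries. Its log2 change was 1.21 ± 0.15 on all reads and 1.36 on tailed reads, and 0.76 with the run term (edgeR adjusted p = 0.064). The DEAD-box helicase cgh-1 had 1191, 1040 and 1084 CPM in N2 and 2076 and 1952 CPM, a log2 change of 0.87 ± 0.14 that was 0.85 with the run term. A pair of PUF-family genes needed for oocyte formation, puf-5 and puf-6, rose by 1.16 ± 0.16 and 1.23 ± 0.17 on the log2 scale. Under the run term puf-6 stayed at 0.95 and puf-5 was at -0.19.

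Levels of CCCH-protein genes that pattern the embryo along its axis were as follows. The gene mex-5 was at 558, 545 and 543 CPM in N2 and 711 and 691 CPM in the embryo-labelled libraries, a log2 change of 0.35 ± 0.13 (edgeR adjusted p = 0.0621). For pos-1 the values were 655, 566 and 593 CPM against 755 and 729 CPM, with a log2 change of 0.29 ± 0.14 (edgeR adjusted p = 0.128). Both embryo-labelled libraries lay above all N2 libraries for each gene, in a comparison where 60.3% of all genes tested had groups apart. Neither gene passed the test on all reads. On tailed reads both passed, at 0.45 and 0.52. The mex-5 partner gene mex-6 had 183, 200 and 189 CPM against 239 and 335 CPM and rose by 0.59 ± 0.16 on the log2 scale (edgeR adjusted p = 0.021), a call that was lost without any 1 of the N2 libraries or without embryo-labelled replicate 2, where it was 0.31. The count of higher members of the list was 7 without N2 replicate 2, 8 without N2 replicate 3, 17 on tailed reads and 5 with the run term.

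Of 16 genes for eggshell and egg activation, 7 rose (43.8%) and 1 fell (6.25%), beside 16.1 and 18.3% of all genes. Their median log2 change was 0.29. The fits without any 1 of the N2 libraries called 4 higher, as did tailed reads, and the run term called 1. The chondroitin proteoglycan gene cpg-1, which builds an eggshell layer, rose the most of those named. It had 1344, 1172 and 1201 CPM in N2 and 2826 and 3500 CPM in the embryo-labelled libraries, a log2 change of 1.35 ± 0.16 (edgeR adjusted p = 0.00047). It was also higher on tailed reads at 1.35 and with the run term at 0.96 (edgeR adjusted p = 0.0135). The related genes cpg-2 and cpg-3 rose by 0.58 ± 0.15 and 0.96 ± 0.18 but stood at -0.19 and -0.33 with the run term, and cpg-2 lost its call without any 1 of the N2 libraries. The pseudophosphatase gene egg-4, needed at egg activation, had 53.4, 59.1 and 54.7 CPM against 101 and 124 CPM, with a log2 change of 1.01 ± 0.15 on all reads and 0.06 on tailed reads. The chitin-binding eggshell gene cbd-1 was the member that fell. Its levels of 397, 499 and 521 CPM went to 301 and 321 CPM, a log2 change of -0.60 ± 0.16 that did not pass without N2 replicate 2 or 3.

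Among 10 genes of the oocyte membrane and yolk uptake, 2 rose (20%) and 3 fell (30%), beside 16.1 and 18.3% of all genes. Without any 1 of the N2 libraries 1 was lower. The yolk receptor gene rme-2, expressed in oocytes, had 281, 280 and 281 CPM in N2 and 157 and 130 CPM in the embryo-labelled libraries. It fell by 0.97 on the log2 scale (edgeR adjusted p = 0.00124), by 0.86 on tailed reads, and stood at -0.20 with the run term. Caveolin cav-1, a component of oocyte and early embryo membranes, had 261, 233 and 294 CPM against 78.8 and 179 CPM, with the embryo-labelled replicates far apart. Its call was lost without any 1 of the N2 libraries.

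Genes that set up polarity and division of the zygote leaned upward. Of 25 polarity genes, 9 rose (36%) and 0 fell, at a median log2 change of 0.46. Of 60 genes of the cell cycle and division 23 rose (38.3%) and 3 fell (5%), at a median of 0.30. The shares of all genes were 16.1% higher and 18.3% lower. With the run term 2 polarity and 3 cell cycle genes were called higher, and without N2 replicate 2 or 3 the fit called 5 polarity genes and 13 or 12 cell cycle genes. The atypical protein kinase gene pkc-3, part of the anterior PAR complex, had 76.3, 74.6 and 82.7 CPM in N2 and 129.1 and 150.8 CPM. Its log2 change of 0.85 ± 0.14 was 1.08 on tailed reads and 1.02 with the run term (edgeR adjusted p = 0.0254). The 14-3-3 gene par-5 had 1033, 908 and 844 CPM against 1806 and 1503 CPM, a log2 change of 0.83 ± 0.16. Aurora A kinase, encoded by air-1, had 178, 169 and 163 CPM against 321 and 478 CPM, a log2 change of 1.23 ± 0.17 that was 1.496 on tailed reads. The survivin gene bir-1, a chromosomal passenger, rose from 300, 295 and 269 CPM to 710 and 826 CPM, which is 1.42 ± 0.14 on the log2 scale, 1.70 on tailed reads and 0.44 with the run term. The spindle checkpoint gene bub-3 rose by 1.33 ± 0.14, and emb-27, a subunit of the anaphase-promoting complex, by 1.64 ± 0.22. For all of these the groups did not overlap, as in 60.3% of all genes tested.

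Proteasome genes leaned upward. Of 30 proteasome subunits tested, 18 rose (60%, beside 16.1% of all genes) and 0 fell, with a median log2 change of 0.67. That count was 16 to 19 when any 1 library was left out, 14 on tailed reads and 10 with the run term, where the median was 0.60. The lid subunit gene rpn-5 had 165, 119 and 145 CPM in N2 and 397 and 379 CPM in the embryo-labelled libraries, a log2 change of 1.44 ± 0.16 (edgeR adjusted p = 0.000369) that was 1.56 with the run term. The core subunit genes pas-1, pas-4 and pas-6 rose by 1.42 ± 0.18, 1.39 ± 0.15 and 1.05 ± 0.13, and each passed with the run term as well. Of 21 genes of protein turnover at the oocyte-to-embryo transition, 9 rose (42.9%) and 1 fell (4.76%). They include the GSK-3 kinase gene gsk-3, whose protein helps to mark oocyte proteins for degradation, at 132, 122 and 138 CPM in N2 and 203 and 241 CPM. Its log2 change was 0.76 ± 0.14, and 0.88 with the run term. SKP1-related genes, which encode adaptors of SCF ubiquitin ligases, went both ways, with 4 of 17 higher (23.5%) and 5 lower (29.4%). The shares of all genes were 16.1 and 18.3%. The close copies among them make single members uncertain. The gene skr-8 fell from 37.6, 51.2 and 44.95 CPM to 5.96 and 11.1 CPM, and skr-15 rose from 15.7, 14.6 and 12.3 CPM to 36.6 and 36.0 CPM. Under the run term skr-8 was at -5.11 and skr-15 at -2.48 on the log2 scale, and 0 of the 17 were higher and 7 lower.

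Poly(A) polymerases and their partners gave 9 higher (37.5%, beside 16.1% of all genes) and 0 lower of 24 genes, at a median log2 change of 0.34. Without N2 replicate 2 or 3 the count was 4, and with the run term 5. The terminal uridylyltransferase gene pup-2 had 76.4, 68.5 and 76.02 CPM in N2 and 171 and 210 CPM in the embryo-labelled libraries. Its log2 change of 1.37 ± 0.15 (edgeR adjusted p = 0.000322) was 0.97 on tailed reads and 0.88 with the run term. A related uridylyltransferase gene, cid-1, rose by 0.84 ± 0.16. The gld-2 gene itself had 13.8, 12.4 and 13.2 CPM in N2 and 23.3 and 21.5 CPM, a log2 change of 0.77 ± 0.23 (edgeR adjusted p = 0.0286), and on tailed reads 0.37.

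Of 12 deadenylase genes, 4 rose (33.3%) and 1 fell (8.33%), beside 16.1 and 18.3% of all genes, with 1 higher without N2 replicate 2 or 3. The largest increase among named genes of the whole comparison was in ccr-4, a catalytic subunit of the CCR4-NOT deadenylase (chromosome IV, 12361630 to 12370602, ce10). It had 3.42, 2.18 and 2.57 CPM in N2 and 486 and 130 CPM in the embryo-labelled libraries, a log2 change of 6.83 ± 0.53 (edgeR adjusted p = 9.27e-05) that was 3.52 with the run term. The mean tail of its reads was 46.6, 34.8 and 40.6 nt in N2, on 19 to 25 tailed reads, and 13.6 and 15.4 nt in the embryo-labelled libraries. In counts per 1e6 total reads, the library pair labelled as RNAi against ccr-4 in the same run held 858 and 1056, with mean tails of 29.9 and 15.3 nt. The embryo-labelled libraries held 505 and 154, and the other RNAi libraries of run 2 between 2.91 and 25.5. The part of the RNAi libraries in this value was not tested. The CCR4-NOT catalytic gene ccf-1 stood at 333, 300 and 342 CPM in N2 and 279 and 339 CPM, with no call. Of 18 genes of decapping and decay, 3 rose and 3 fell, 16.7% each way, near the 16.1 and 18.3% of all genes.

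Several other germline lists lay closer to the shares of all genes, 16.1% higher and 18.3% lower. Of 22 P granule genes 5 rose (22.7%) and 3 fell (13.6%), of 29 meiotic prophase genes 4 and 4 (13.8% each), and of 24 germline Argonaute and small RNA genes 6 (25%) and 3 (12.5%). Without N2 replicate 2 each of these lists had 3 higher, and 0, 0 and 1 lower. The P granule scaffold gene pgl-1 had 89.4, 99.2 and 87.1 CPM in N2 and 239 and 173 CPM in the embryo-labelled libraries, a log2 change of 1.17 ± 0.16. On tailed reads it was -0.60 (edgeR adjusted p = 0.0235), with 19.7 and 25.6% of its reads tailed against 87.6 to 96.1% in N2. The Argonaute gene ergo-1, which acts with endogenous small interfering RNAs, had 653, 616 and 606 CPM against 1158 and 1456 CPM, and it rose by 1.06 ± 0.15 on all reads and 1.35 on tailed reads. The sperm fate gene fog-3 fell from 88.2, 94.8 and 88.3 CPM to 24.1 and 10.9 CPM, a log2 change of -2.37 ± 0.28 that was -2.79 with the run term. Of 36 sperm genes tested, 5 rose (13.9%) and 0 fell, at a median log2 change of 0.38. Under the run term 34 of 44 were higher, at a median of 3.50, while the gld-2 worms alone differed between runs by a median of -3.14. Their levels were low, with all members of the list together at 144 to 209 CPM in N2 and 214 and 270 CPM in the embryo-labelled libraries. Of 22 maternal transcription factor and chromatin genes 7 rose (31.8%) and 1 fell (4.55%), with 3 higher without N2 replicate 3 and 4 without N2 replicate 1 or 2. Of 28 histone genes 9 rose (32.1%) and 5 fell (17.9%), and 5 and 2 without N2 replicate 2. The H3 gene his-74, at 257, 268 and 263 CPM in N2 and 727 and 678 CPM, showed a log2 change of 1.42 ± 0.13. Most histone genes have close copies, so single members are uncertain.

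Of 27 tested genes known to be first transcribed in the embryo, 3 rose (11.1%) and 10 fell (37%), beside 16.1 and 18.3% of all genes. Their median log2 change was -1.10. The count of lower members was 4 without any 1 of the N2 libraries and 3 with the run term. The summed level of the list was 448 and 562 CPM in the embryo-labelled libraries and 463 to 521 CPM in N2. The homeobox gene ceh-51, which specifies mesoderm, had 7.72, 10.5 and 10.4 CPM in N2 and 1.08 and 2.59 CPM in the embryo-labelled libraries, a log2 change of -2.36 ± 0.47 (edgeR adjusted p = 0.00539). The endoderm factor elt-2, which also acts in the adult intestine, had 45 reads in N2 and 0 in the embryo-labelled libraries, at least 3.28-fold lower when set against a floor of 3 counts over the group. The early embryonic gene pes-10 was at 1.39, 3.10 and 2.01 CPM in N2 and at 0.54 and 4.41 CPM, with overlapping groups.

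Among the somatic lists, muscle had 24 of 31 genes lower (77.4%) and 1 higher (3.23%), beside 18.3 and 16.1% of all genes. Its median log2 change was -1.24. Between 20 and 26 were lower when any 1 library was left out, 24 on tailed reads and 13 with the run term, where the median was -1.05. The body wall myosin gene unc-54 had 773, 777 and 726 CPM in N2 and 275 and 304 CPM in the embryo-labelled libraries, a log2 change of -1.39 ± 0.14 (edgeR adjusted p = 0.000276) that was -1.05 with the run term. Paramyosin, encoded by unc-15, had 769, 746 and 737 CPM against 223 and 269 CPM, and fell by 1.61 on the log2 scale. The pharyngeal myosin gene myo-2 fell further, from 52.8, 45.2 and 44.0 CPM to 7.04 and 2.85 CPM, a log2 change of -3.26 ± 0.33. Perlecan, encoded by unc-52, which anchors muscle to the body wall, fell by 2.38. In each of these genes the groups were apart, and none of the 4 was at 0 in the embryo-labelled libraries.

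Neuropeptide and synapse genes had the lowest median of any list, a log2 change of -1.75. Of 102 genes 57 were lower (55.9%) and 2 higher (1.96%), beside 18.3 and 16.1% of all genes. With the 13 members that were at 0 in all libraries of 1 group set to their bound, the median was -1.70. The lower count was 32 to 35 without any 1 of the N2 libraries, 76 without embryo-labelled replicate 1, 53 on tailed reads and 40 with the run term. The neuropeptide gene nlp-13 had 25.7, 30.9 and 26.8 CPM in N2 and 1.90 and 1.81 CPM, a log2 change of -3.89 ± 0.32 (edgeR adjusted p = 0.000101) that was -3.61 with the run term. FMRFamide-like peptide gene flp-18 had 211 reads in N2 and 0 in the embryo-labelled libraries, at least 15.4-fold lower against the same floor. The synaptobrevin gene snb-1, which many cells express, was at 152, 182 and 178 CPM and at 180 and 206 CPM, with overlapping groups. The prohormone convertase gene egl-3, needed to process neuropeptides, fell by 2.28.

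Cuticle collagens split, with 25 of 82 higher (30.5%) and 27 lower (32.9%), beside 16.1 and 18.3% of all genes, at a median log2 change of -0.07. The higher count was 15 without N2 replicate 1 or 2, 17 without embryo-labelled replicate 1, 11 on tailed reads and 9 with the run term, and the lower count was 18 to 38 when any 1 library was left out. Abundant adult collagens were among the lower ones: col-124 had 5496, 5362 and 4658 CPM in N2 and 1451 and 1239 CPM in the embryo-labelled libraries, and col-179 had 865, 917 and 917 CPM against 293 and 190 CPM. Their log2 changes were -1.94 ± 0.18 and -1.90 ± 0.20. Collagens that were near 0 in N2 were among the higher ones: col-77 went from 0.51, 0.34 and 0.56 CPM to 20.0 and 9.33 CPM, and col-38 from 3.16, 2.76 and 2.97 CPM to 22.5 and 15.6 CPM. The collagen gene dpy-4 was also near 0 in N2, at 3.42, 1.04 and 2.57 CPM, and reached 50.9 and 25.1 CPM, a log2 change of 4.01 ± 0.45 that was 5.77 with the run term. Collagen genes share long stretches of sequence, so single members are uncertain.

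The intestine list had 11 higher (34.4%) and 8 lower (25%) of 32 genes, beside 16.1 and 18.3% of all genes. Its median log2 change was 0.30, and its members spread widely between the embryo-labelled replicates. The aspartic protease gene asp-1 had 3358, 3338 and 3308 CPM in N2 and 2301 and 6300 CPM in the embryo-labelled libraries, on either side of N2. The cysteine protease gene cpr-1 had 152, 162 and 154 CPM against 160 and 758 CPM, and its call (log2 change 1.56 ± 0.46) rested on embryo-labelled replicate 2, without which the change was 0.01. The metallothionein gene mtl-1, which binds metals, rose from 3.04, 6.09 and 2.33 CPM to 46.03 and 169 CPM, a log2 change of 4.84 ± 0.54 that was 0.69 with the run term. The higher count of the list was 7, 5 and 5 without N2 replicate 1, 2 and 3, and 3 both on tailed reads and with the run term. Of 5 vitellogenin genes, which encode yolk proteins, 1 fell (20%, beside 18.3% of all genes) and 0 rose. That gene, vit-1, had 2154, 2240 and 2213 CPM in N2 and 395 and 341 CPM, a log2 change of -2.58 ± 0.16 (edgeR adjusted p = 7.39e-05) that was -1.34 with the run term. The vitellogenin genes are close copies of each other in part, so vit-1 is uncertain on its own. The remaining members vit-2, vit-4, vit-5 and vit-6 had log2 changes between -0.47 and 0.24 with no call, and on tailed reads 3 of the 5 fell.

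Of 70 ribosomal protein genes, 7 rose (10%) and 5 fell (7.14%), below the 16.1 and 18.3% of all genes. Their median log2 change was 0.02, and these counts depended on single libraries. Without embryo-labelled replicate 2 there were 28 higher, and without embryo-labelled replicate 1 there were 30 lower. Their summed level was 225988 and 146591 CPM in the embryo-labelled libraries, on either side of the 151400 to 170574 CPM of N2. On tailed reads 2 rose and 16 fell, and with the run term 0 rose and 8 fell. Of 20 heat shock and stress genes 7 rose (35%) and 5 fell (25%), and 3 and 2 without N2 replicate 2. They include the small heat shock gene sip-1, expressed in oocytes and embryos, at 5600, 6205 and 5849 CPM in N2 and 9880 and 11293 CPM, a log2 change of 0.85 ± 0.16 that was 0.97 on tailed reads. The small heat shock gene hsp-12.2 fell from 31.5, 21.8 and 22.2 CPM to 3.25 and 1.81 CPM, a log2 change of -3.31 ± 0.38. Of 11 innate immunity genes 6 rose (54.5%) and 1 fell (9.09%), at a median log2 change of 0.69, with 3 higher without N2 replicate 3. With the run term 1 of 12 was higher and 2 lower, at a median of -0.36, and 8 of the 12 were higher in run 2 in gld-2 worms. Of 13 somatic gonad genes 2 rose (15.4%) and 3 fell (23.1%), near the 16.1 and 18.3% of all genes. Both counts were 0 without N2 replicate 2 or 3 and 0 of 16 with the run term. Of 23 genes for cap binding and translation initiation 2 rose (8.7%) and 3 fell (13%), below the shares of all genes.

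**Figure D3:**
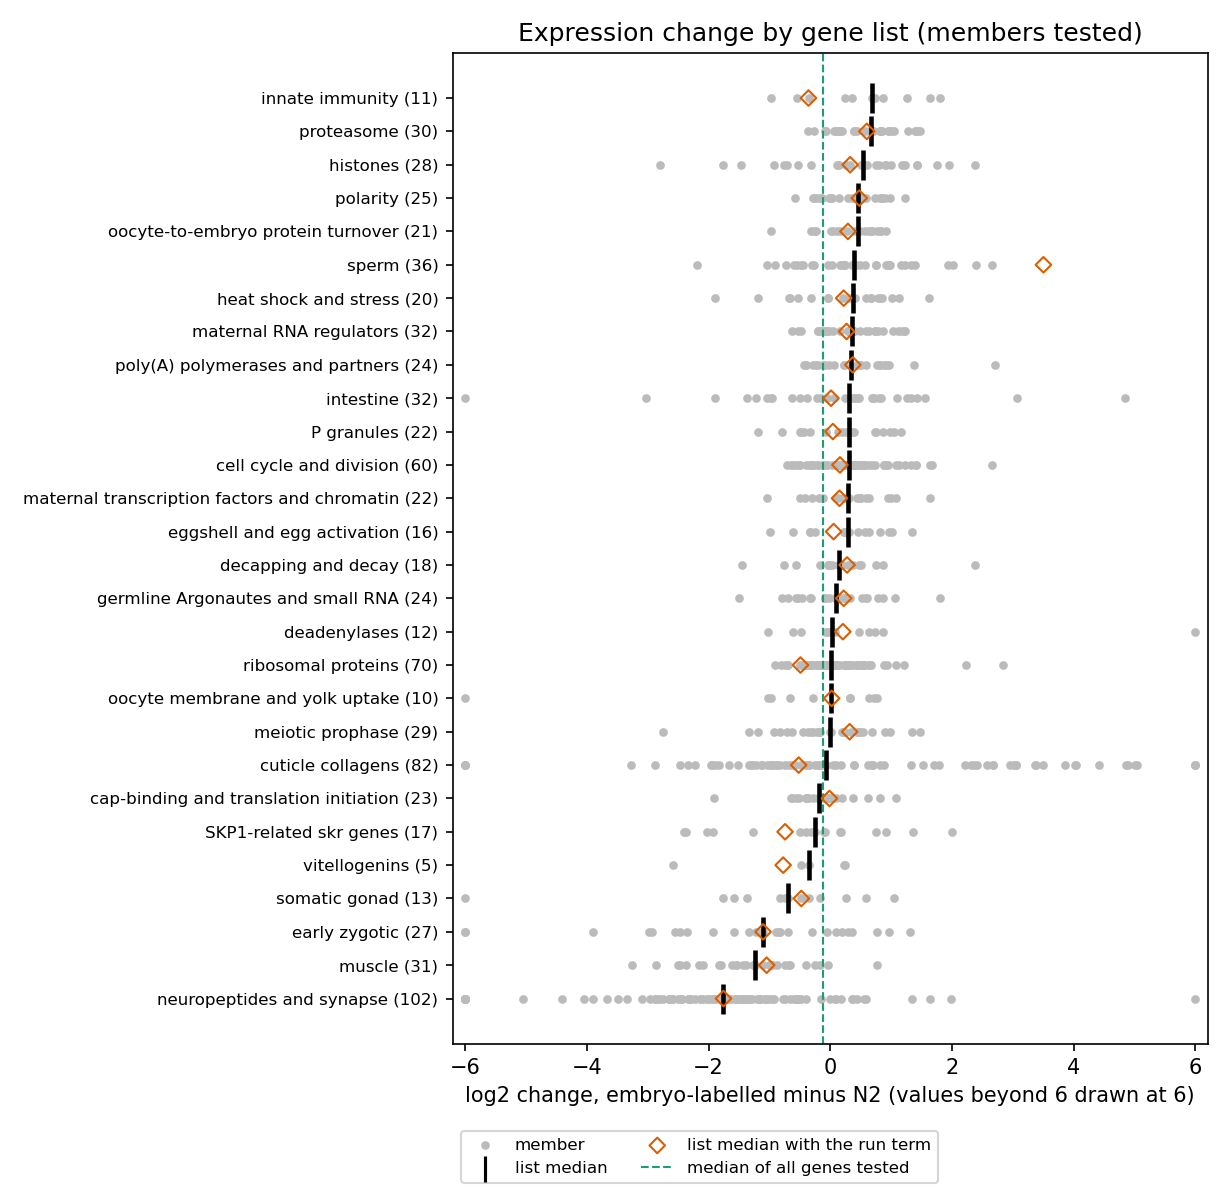
Log2 change of each tested member of 28 gene lists (grey points, values beyond 6 drawn at 6, number tested in brackets), with the list median (black bar), its median with the run term (orange diamond) and the median of all genes (dashed line). Muscle and neuropeptide and synapse genes lie left of the dashed line with and without the run term, proteasome genes lie right of it, and the sperm list moves from a median of 0.38 to 3.50 with the run term.

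The largest decreases among named genes at 20 CPM or more also included fipr-2, msra-1 and folt-2. The methionine sulfoxide reductase gene msra-1 had 108, 128 and 109 CPM in N2 and 11.4 and 3.63 CPM in the embryo-labelled libraries, a log2 change of -3.94 ± 0.35 that was -3.42 with the run term. The folate transporter gene folt-2 had 467, 356 and 337 CPM against 43.3 and 27.2 CPM, a log2 change of -3.46 ± 0.25 and -2.74 with the run term. For fipr-2 the log2 change was -4.01 ± 0.50. Among the increases, the peroxisomal beta-oxidation gene ech-9 went from 1.01, 0.57 and 0.96 CPM to 12.5 and 28.8 CPM, a log2 change of 4.57 ± 0.47 and 5.28 with the run term. The parkin gene pdr-1 went from 13.3, 11.4 and 10.6 CPM to 166 and 131 CPM, or 3.66 ± 0.18 on the log2 scale. Under the run term it was at 0.26 and on tailed reads at 0.90, with 8.97 and 6.35% of its reads tailed against 58.1 to 70.5% in N2.

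Values were also set out by chromosome. On the X chromosome, whose genes are largely silenced in the germline, 6.28% of 1433 tested genes were higher and 26.5% lower, at a median log2 change of -0.54. The medians of the 5 autosomes ran from -0.24 on chromosome V to 0.08 on chromosome III. With the run term the X median was -0.71 and the autosome medians ran from -0.21 to 0.08. The whole-animal adult libraries hold somatic tissue, and the lower muscle, neuronal and X-linked values stand side by side here without a test of their relation.

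Tail lengths were compared in the same libraries. The library median over 6671 genes with a length in all 5 was 36.8 ± 1.10 nt in N2 (SD, n = 3) and 35.2 ± 0.52 nt in the embryo-labelled libraries (SD, n = 2), a difference of -1.57 nt. The exact 2-sided permutation test gave p = 0.2, the smallest that 10 splits of these libraries allow, and the groups touched, since N2 replicate 2 and embryo-labelled replicate 2 both had a median of 35.6 nt. With the run difference of the gld-2 worms taken off, it was -0.66 nt. The spread between genes was wider in the embryo-labelled libraries. Over 3405 genes with at least 50 tailed reads in each library, the SD of tail length was 5.54 to 6.16 nt in N2 and 8.61 and 9.13 nt in the embryo-labelled libraries. The embryo-labelled replicates also differed more from each other, with an SD of their difference of 5.68 nt over these genes against 2.10 to 2.43 nt between N2 libraries. At 326 genes with at least 1000 tailed reads in each library these values were 2.00 nt and 0.98 to 1.18 nt.

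By gene, the limma test on 6442 genes with at least 5 tailed reads in each length used called 0 tail changes (0.0%), with a lowest adjusted p of 0.0562. At an unadjusted p under 0.05 there were 1471 genes, 491 longer and 980 shorter in the embryo-labelled libraries. The median change was -1.16 nt with a median SE of 2.74 nt. With lengths restricted to at least 20 tailed reads, an alternative that tests 3799 genes, the median SE was 2.04 nt and 385 genes (10.1%) were called at an adjusted p under 0.05, of which 106 (2.79%) had longer and 279 (7.34%) shorter tails. Weighting by reads gave 92 longer and 279 shorter genes, and a fit that lets the spread depend on read depth, chosen after the data were seen, gave 186 (2.89%) and 220 (3.42%), together 6.3% of 6442. Of the 385, 235 were called by the depth fit as well. Both fits use lengths from the same libraries, so this overlap is not a separate test and agreement in sign follows from the shared data. Without embryo-labelled replicate 1 or 2 the first test called 1350 or 1070 genes, where the lone library is assumed to vary like N2. Below, longer and shorter refer to the test with at least 20 tailed reads.

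Part of these differences was also seen between the runs. The 106 longer genes had a median change of 11.6 nt, and 7.71 nt with the run term, and tails of the same genes were longer by a median of 3.84 nt in run 2 in gld-2 worms. The 279 shorter genes had a median of -8.21 nt, and -5.90 nt with the run term. Signs were kept in 94 of 106 longer and 271 of 277 shorter genes that could be fitted with the run term, and with it 0 genes passed on their own. Tails of gld-2 worms start from other lengths. Their library median in run 1 was 33.8 nt, against 36.8 nt in N2. In run 1 gld-2 worms mex-5 had 25.1 to 27.3 nt and pos-1 21.3 to 22.8 nt, far below N2, while pie-1 had 27.5 to 31.3 nt. Whether a run difference at those lengths applies at N2 lengths was not tested.

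Tails of 537 deeply read genes, those with at least 500 tailed reads in each library and so chosen after the counts were seen, are described apart because their replicate spread was small. Their median SD was 1.14 nt among N2 libraries and 0.99 nt among embryo-labelled libraries. In 379 of them (70.6%) the groups did not overlap, beside 43.5% of all 6442 genes, 77 with the embryo-labelled libraries above and 302 below, and the median change was -2.003 nt. The test called 12 longer (2.23%) and 42 shorter (7.82%), near the shares of all 3799 genes tested (2.79% and 7.34%).

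**Figure D4:**
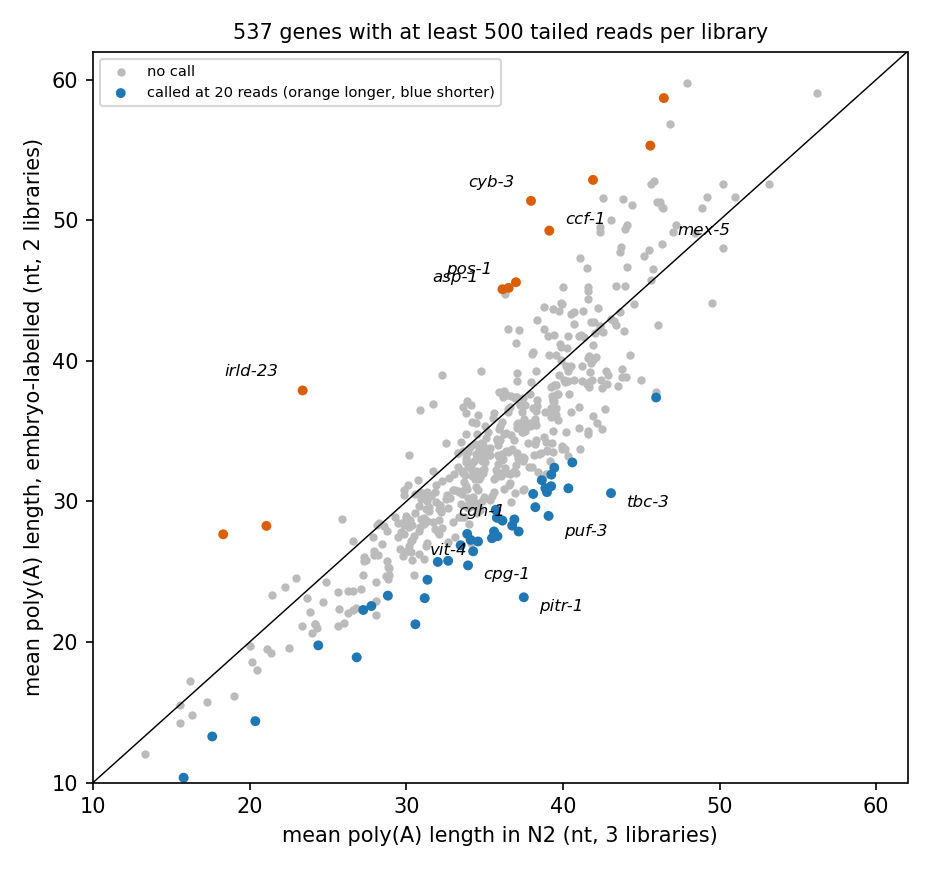
Mean poly(A) length of 537 genes with at least 500 tailed reads in each library, in N2 (horizontal axis, mean of 3 libraries) and in embryo-labelled libraries (vertical axis, mean of 2), in nt, with the line of equal length. Coloured points passed the test with at least 20 tailed reads, orange for 12 longer and blue for 42 shorter tails; most points lie below the line, with a minority well above it.

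Examples of genes with longer tails follow. The decapping cofactor gene patr-1 (chromosome II, 11774970 to 11777857, ce10) had tails of 36.98, 33.9 and 34.9 nt in N2 and 52.3 and 52.4 nt in the embryo-labelled libraries, a change of 17.1 ± 2.16 nt (SE, limma adjusted p = 0.0265). Of that, 8.67 nt remained with the run term. The B-type cyclin gene cyb-3 (chromosome V, 15395696 to 15397050) had 38.9, 36.5 and 38.6 nt against 51.2 and 51.6 nt, and 9.35 nt of its 13.4 nt remained with the run term. The deadenylase gene ccf-1 had 40.3, 37.2 and 39.9 nt against 50.1 and 48.4 nt, a change of 10.1 nt that was 10.6 nt with the run term. In all of these the embryo-labelled libraries lay above every N2 library by more than the range within either group. In expression patr-1 fell by 0.56 on the log2 scale, and cyb-3 and ccf-1 had log2 changes of -0.21 and -0.07 that did not pass.

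The maternal gene pos-1 had tails of 37.3, 35.3 and 36.95 nt in N2 and 44.0 and 46.4 nt in the embryo-labelled libraries, a change of 8.66 nt (limma adjusted p = 0.0354), and 5.54 nt with the run term. It was the single longer gene (3.7%) among 27 maternal RNA regulators tested, of which 4 were shorter (14.8%), beside 2.79 and 7.34% of all 3799 genes. Their median change was -2.88 nt beside -1.39 nt for all 3799 genes. For mex-5 the lengths were 47.2, 44.9 and 46.9 nt and 47.5 and 49.1 nt, a change of 2.03 nt that did not pass. The microtubule-associated kinase gene zyg-8, needed for spindle positioning, had 43.9, 41.4 and 41.2 nt against 56.5 and 57.4 nt. Under the run term 2.86 nt of that change remained. The gene irld-23 went from 23.7, 21.8 and 24.7 nt to 38.4 and 37.4 nt, with 8.44 nt kept under the run term. The DNA repair gene mre-11 and the glycoprotein folding sensor gene uggt-1 changed by 20.1 and 25.8 nt, and by 14.2 and 13.4 nt with the run term. The asymmetric division kinase gene pig-1 had 42.2, 40.6 and 40.8 nt against 54.2 and 60.9 nt, a change of 16.4 nt and of 16.0 nt with the run term.

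Of the PUF-family genes, puf-3 and puf-11 passed as shorter, while puf-5, puf-6 and puf-7 had changes of -4.35, -4.31 and -4.49 nt and puf-8 of 5.35 nt, none of which passed. The gene puf-3 (chromosome IV, 13510494 to 13512121) had 39.2, 37.5 and 40.5 nt in N2 and 28.9 and 29.0 nt in the embryo-labelled libraries, a change of -10.1 ± 1.75 nt (limma adjusted p = 0.0287) that was -9.67 nt with the run term. Its near copy puf-11 had 38.8, 38.0 and 40.1 nt against 30.6 and 30.7 nt, and as the pair may share reads each is uncertain on its own. The helicase gene cgh-1 had 38.1, 37.7 and 38.5 nt against 30.6 and 30.4 nt. The gene daz-1 had 32.6, 32.6 and 32.8 nt against 25.8 and 25.8 nt, so that the whole range within each group was at most 0.2 nt while the change was -6.89 nt. Each of these 4 maternal genes changed by -5.23 to -9.67 nt with the run term. In contrast to their tails, daz-1 and cgh-1 rose in reads, as described above.

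Outside the maternal regulators, the eggshell gene cpg-1 (chromosome III, 4489332 to 4491231) had tails of 33.5, 33.8 and 34.6 nt in N2 and 26.2 and 24.7 nt in the embryo-labelled libraries, a change of -8.49 nt. Aurora A gene air-1 had 40.7, 39.8 and 41.4 nt against 32.5 and 33.03 nt. The uridylyltransferase gene pup-2 had 40.2, 40.4 and 44.5 nt against 28.5 and 32.1 nt, a change of -11.4 nt and of -9.79 nt with the run term. The groups did not overlap in any of them, as in 43.5% of all 6442 genes tested and 70.6% of the 537 deeply read genes. The small GTPase gene rab-5, which acts in early endosomes, went from 36.7, 35.8 and 37.8 nt to 29.7 and 26.8 nt, and the yolk endocytosis gene rme-1 from 35.3, 34.4 and 37.7 nt to 29.3 and 28.4 nt. These and cav-1, at 33.4, 32.1 and 33.7 nt against 26.2 and 24.9 nt, belong to the oocyte membrane and yolk uptake list. Of its 9 genes tested, 4 were shorter (44.4%, beside 7.34% of all 3799 genes) and 0 longer, at a median of -5.37 nt. With the run term the list's median was -3.05 nt, and cav-1 was at -0.30 nt.

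The largest decrease in the 20-read test was in lsy-13 (chromosome IV, 16863842 to 16865292). Its tails were 32.5, 32.2 and 32.6 nt in N2 and 13.6 and 11.0 nt in the embryo-labelled libraries, a change of -20.1 ± 1.44 nt (limma adjusted p = 0.00412). A change of -8.18 nt remained with the run term. The neuropeptide gene nlp-34 had 41.2, 45.3 and 42.5 nt against 18.7 and 27.4 nt, and -18.9 nt of its -19.9 nt remained with the run term. The phosphate transporter gene pitr-1 had 36.3, 37.3 and 38.9 nt against 24.4 and 21.9 nt, and the RabGAP gene tbc-3 had 43.4, 41.8 and 44.1 nt against 31.02 and 30.2 nt. Those changes were -14.3 and -12.5 nt, and -12.1 and -9.23 nt with the run term.

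**Figure D5:**
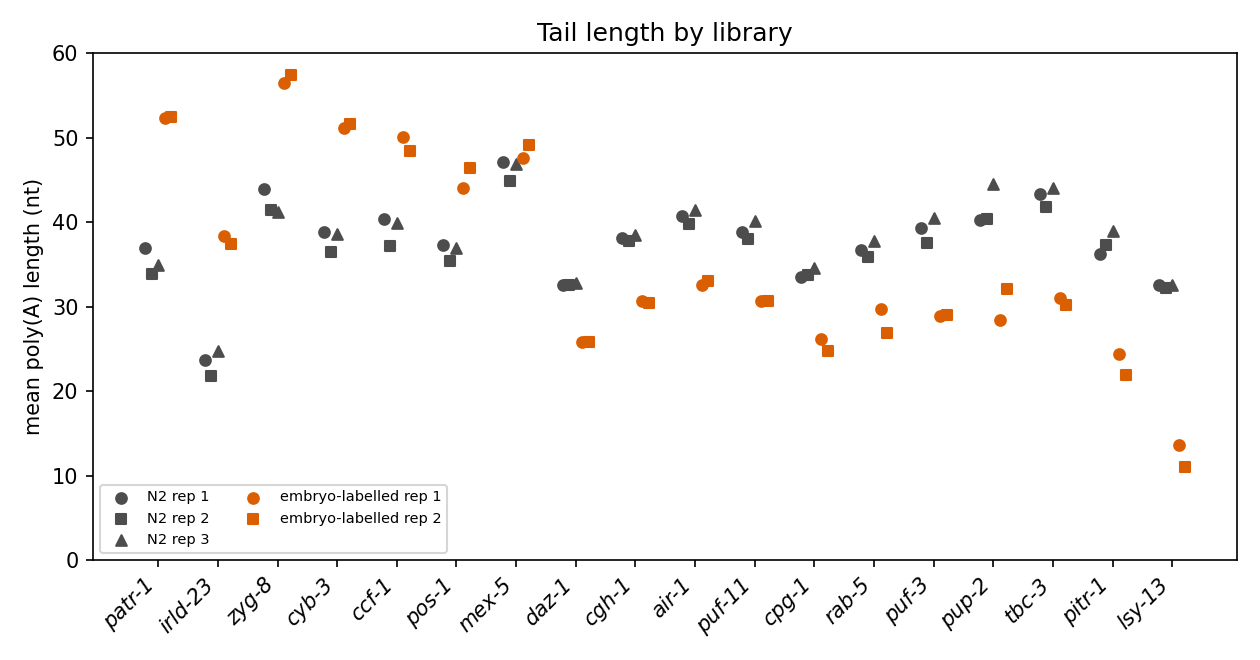
Mean poly(A) length (nt) of 18 named genes in each library, N2 in grey and embryo-labelled in orange. The groups are apart for each gene, as in 43.5% of all 6442 genes tested. The gene mex-5, whose change did not pass the test, has the closest groups, and genes from daz-1 to the right have shorter tails in the embryo-labelled libraries.

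The other lists had few tail calls. Of all 3799 genes tested, 2.79% were longer and 7.34% shorter. Of 30 proteasome genes 1 was shorter (3.33%) and 0 longer, at a median of -3.50 nt. Of 14 decapping and decay genes 3 were longer (21.4%) and 1 shorter (7.14%), at a median of 1.61 nt. Of 52 cell cycle genes 1 was longer and 1 shorter (1.92% each) at a median of -0.97 nt. All 5 vitellogenin genes had negative changes, at a median of -4.93 nt, and 1 of them passed: vit-4 had 36.5, 32.96 and 36.99 nt in N2 and 27.5 and 27.3 nt in the embryo-labelled libraries. That change of -8.09 nt was 1.20 nt with the run term. Among 70 ribosomal protein genes 2 were shorter (2.86%) and 0 longer, at a median of -1.57 nt. In muscle 0 of 18 genes passed in either direction, at a median of -1.04 nt.

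Tail and expression calls were set side by side over the 3799 genes tested for both. Of 279 genes with shorter tails, 116 were higher and 18 lower in expression, and of 106 genes with longer tails, 9 were higher and 28 lower. In the whole set 1012 genes were called higher and 498 lower. The superoxide dismutase gene sod-2 is an example of the larger combination: it rose from 47.6, 39.0 and 39.6 CPM to 102 and 81.9 CPM while its tails went from 36.97, 35.3 and 36.99 nt to 28.1 and 27.3 nt. The zinc transporter-related gene hke-4.2 shows the opposite, with 28.5, 42.7 and 43.1 CPM in N2 and 15.4 and 21.3 CPM, and tails of 41.5, 38.5 and 42.1 nt against 57.7 and 55.9 nt. Its expression call was lost without N2 replicate 2 or 3, and its tail change of 16.1 nt was 0.83 nt with the run term. Both measures come from the same reads and the same libraries, so these counts are a description of the 5 libraries.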

How the data were processed

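PAT-seq tables from the authors gave, for each gene row and library, raw read counts, counts of reads with a poly(A) tail and the mean tail length in nt. The deposited tail length is a mean over tailed reads in a unit other than counts, and ran from 4 to 129 nt. Per the submitters' processing notes, Bowtie, Bowtie2 2.2.4 and the build ce10 were used. For the counting tool, read filters, strand and tail measurement, details were not given in the sources used here. Per the labels' protocols, fragments of 120 to 300 bases were selected, which bounds the tails that can be read.

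Of 31753 rows, 9343 passed edgeR's filterByExpr on the 5 libraries. edgeR 4.0.16 (R 4.3.3) tested expression (TMM, quasi-likelihood, robust) on the counts as deposited, and CPM are on TMM-scaled library sizes. Tail lengths on at least 5 tailed reads, with a mean of at least 20, were tested with limma 3.58.1 (eBayes, trend, robust). Adjusted p-values are Benjamini-Hochberg over all genes tested, with a threshold of 0.05. The stricter alternative needs 20 tailed reads per length and a mean of 50 per group. DESeq2 1.42.0 was an alternative, and tests were checked on simulated data. In the simulated tails the spread at a given read depth was the same in both groups. That check therefore does not cover a wider spread between embryo-labelled replicates. The run term fits embryo-labelled, N2, gld-2 and control RNAi libraries together. In fits with a group of 1 library, it is assumed to vary like the others.

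The 28 lists and the members were chosen with earlier results of these data known. Named genes came from a rule: the 10 largest called changes in each direction (groups apart, at least 20 CPM for expression), up to 5 members of each list with the smallest adjusted p, up to 4 genes for each combination of calls, and the markers; other genes were named after their values were seen. Rows that merge several coding genes were left out of lists. Names came from the tables and RefSeq (WBcel235) accessions, for 29111 rows. Replicate numbers did not pair libraries. There were 0 value columns without a sample. No sequence is shown.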

Additional observations from a re-analysis of the deposited data

How the results depend on the processing

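The numbers below are genes called at an adjusted p under 0.05. For expression, the run term gave 1413 (561 higher, 852 lower). Leaving out 1 library in turn gave 1541 to 4454 in all, 795 to 1897 higher and 739 to 2619 lower. The size factors of DESeq2, DESeq2 itself, no filter, tailed reads, rows of ribosomal RNA left out and all 23 libraries in 1 fit kept the total within 1.5 times of 3215. For tails, where the reported test called 0, at least 20 tailed reads gave 385 (106 longer, 279 shorter), weights 371 (92 and 279), all 23 libraries 381 (156 and 225), the depth trend 406 (186 and 220) and log2 lengths 1 (1 longer). Leaving out 1 library gave 0 to 1350, with 0 to 677 longer and 0 to 673 shorter. The library median difference of -1.57 nt ran from -1.08 to -2.17 nt without 1 library and was -0.66 nt with the run term. A set of 72 log2 changes and 30 tail changes was followed through these settings. Among these, rpl-33 at -0.61 and pgl-1 at -0.60 changed sign on tailed reads. With the run term rpl-33 -1.28, tbb-2 -0.39, patr-1 0.49, puf-5 -0.19, cpg-3 -0.33, cpg-2 -0.19, zyg-8 0.15 and skr-15 -2.48 changed sign. For tails vit-4 did, at 1.20 nt. Called markers also changed sign with the run term: nos-2 from 0.73 to -0.09, spn-4 from 0.40 to -0.41 and him-3 from -1.19 to 0.08. Over all calls, 278 higher and 132 lower genes had the other sign with it. The cause was not tested. Replicate numbers shared by the groups did not go together (correlation of deviations -0.01 and -0.06 for log2 CPM), and a replicate block gave 1700 expression calls (826 higher, 874 lower) and 0 for tails. The embryo-labelled libraries have the fewest reads, 3.55 and 3.27 M, and 2 replicates, which limits tails of genes under about 20 tailed reads.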
